A study of Rattus norvegicus with 10 samples.

Results

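The proteasome genes described here are the 43 genes with a probeset whose annotated symbol begins with Psma, Psmb, Psmc, Psmd, Psmf or Psmg and a number, together with Pomp and Adrm1. They were taken from the 15037 named genes on the array, with 1 probeset each among the 23188 probesets tested. By role they fall into 8 genes of the alpha ring and 7 constitutive genes of the beta ring of the core particle, 3 inducible beta subunits, 6 ATPases and 11 other subunits of the regulatory particle, 6 assembly factors and the inhibitor Psmf1. The last of the 43, Psmc3ip, matches by name only and encodes a partner of recombination proteins. Psma3l, Psmb11, Psmd11, Psmg1 and Psmg3 were looked for by name and are not analysed here.

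The proteasome is the protease that degrades proteins marked with ubiquitin. Its barrel-shaped core particle has outer alpha rings, which gate the entrance, and inner beta rings, which hold the catalytic subunits Psmb5, Psmb6 and Psmb7. Interferon and other inflammatory signals can replace these with Psmb8, Psmb9 and Psmb10, which form the immunoproteasome and favour peptides for MHC class I. The regulatory particle caps the core, binds and removes ubiquitin and unfolds substrates with its ring of ATPases, and dedicated chaperones assist the assembly of both particles.

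The samples were cultured nucleus pulposus cells, from the gelatinous centre of the intervertebral disc, taken from male Sprague Dawley rats of 3 to 4 months. On 5 arrays (ShCtrl, arrays 1 to 5) the cells had received a lentivirus with a control hairpin in pLKO.1, and on 5 arrays (ShBNIP3, arrays 6 to 10) a lentivirus meant to knock down Bnip3, a mitophagy receptor of the outer mitochondrial membrane. RNA was collected 4 days after transduction in both groups, and the design asks how loss of Bnip3 changes expression. The labels do not say how many hairpin sequences were used. Nothing in them says that the 5 arrays of a group stand for 5 animals or cultures, and p-values here reflect array-to-array spread that may be technical. In such bulk samples, fewer cells of a type and less RNA per cell cannot be told apart.

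Values are log2 expression values as normalized by the authors, and differences are ShBNIP3 minus ShCtrl with the standard error (SE) of the limma fit. A gene is said to have risen or fallen where the limma p-value, adjusted by the Benjamini-Hochberg method over all 23188 probesets, was under 0.05. Bnip3 itself lay between 13.94 and 15.97 in ShCtrl and between 10.59 and 12.68 in ShBNIP3, so the groups did not overlap (difference -3.21, limma adjusted p = 0.00020, SE 0.40). Its highest level in each group was on array 4 and array 10, and these 2 arrays also correlated least with the others of their groups (mean Pearson r 0.983 and 0.986, against 0.992 for each of the rest). Calls of proteasome genes are given with and without them, as are some of the differences.

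The labelled cell type was checked against its markers. Of 11 nucleus pulposus markers measured, Acan, Col2a1 and Car3 lay above background on all arrays, Cd24 on 7 and Car12 on 2 of the ShCtrl arrays, whereas Tbxt, Noto, Shh, Krt8, Krt18 and Krt19 were at background on all 10 arrays. Background is the 95th percentile of the 23 antigenomic probesets of an array, which lay between 6.50 and 6.78. Beside the marker counts, 15.5% of all probesets passed in either direction, and 29.1% of those above background on all arrays. Of 7 measured fibroblast and annulus markers, 4 fell (Col1a1, Col1a2, Col3a1 and Thy1) and 0 rose. Without arrays 4 and 10, 3 fell, and Col1a2 had a limma adjusted p of 0.055. The 7 had a summed log2 level between 19.82 and 19.85 in ShCtrl and between 19.35 and 19.53 in ShBNIP3. That sum is mostly Col1a1 and Col1a2, at ShCtrl means of 18.52 and 18.53. Of 15 macrophage and leukocyte markers 3 rose, Cd14, Cd68 and Cd53. All but Cd14 and Cd68 were at background on all arrays, Cd53 included, as were Ptprc, Csf1r and Adgre1. The list had a summed log2 level of 11.09 to 11.80 in ShCtrl and 11.99 to 13.26 in ShBNIP3. That sum is mostly Cd14 (mean 11.17 in ShCtrl and 12.29 in ShBNIP3), with Cd68 at 7.09 and 8.59. The nucleus pulposus markers summed to 13.40 to 14.54 in ShCtrl and 12.19 to 13.80 in ShBNIP3. The largest part of their sum is Acan (mean 13.15 and 12.25), and 2 of these markers, Car3 and Col2a1, fell. Without arrays 4 and 10, 4 nucleus pulposus markers fell, with Acan (-0.97, limma adjusted p = 0.020) and Car12 (-0.95, limma adjusted p = 0.037) in addition. In that fit 10.1% of all probesets fell. Car12 was then above background on array 5 alone, at 6.51 against a background of 6.50. Also in that fit, 1 leukocyte marker at background, Lyz2, passed as lower. All 7 measured endothelial markers were at background (summed 7.19 to 7.50 and 7.35 to 7.60). The part of these shifts in the results below was not tested.

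Promoter sequences are shown for 5 genes that stand for the main kinds of pattern in the data. Psma3 and Psmd10 rose, Psmb3 fell, Psmb5 is a constitutive catalytic gene that did not pass the test, and Psmb10 is the inducible gene with the largest difference. The sequences are from RefSeq on assembly GRCr8, read 5′ to 3′ along the gene's strand, and end at the base before the gene's start, except that for Psma3 the stretch next to the start, which overlaps the RefSeq gene record, was left out. Those of Psma3 (chr6:95219499-95219713) and Psmb3 (chr10:83193537-83193786) lie on the plus strand. Those of Psmd10 (chrX:109453606-109453855), Psmb5 (chr15:32047380-32047629) and Psmb10 (chr19:50743293-50743542) lie on the minus strand. Capitals mark matches to TGACNNNGC (the core of the antioxidant response element, bound by the proteasome gene activator Nfe2l1 and by Nfe2l2), CCAAT (the box bound by NF-Y) and GAAANNGAA (the core of the interferon response element), on either strand.

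Psma3: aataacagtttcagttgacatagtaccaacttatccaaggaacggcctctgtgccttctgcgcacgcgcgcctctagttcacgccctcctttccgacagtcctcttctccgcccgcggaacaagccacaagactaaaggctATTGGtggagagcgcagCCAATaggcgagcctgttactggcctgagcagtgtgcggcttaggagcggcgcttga
Psmd10: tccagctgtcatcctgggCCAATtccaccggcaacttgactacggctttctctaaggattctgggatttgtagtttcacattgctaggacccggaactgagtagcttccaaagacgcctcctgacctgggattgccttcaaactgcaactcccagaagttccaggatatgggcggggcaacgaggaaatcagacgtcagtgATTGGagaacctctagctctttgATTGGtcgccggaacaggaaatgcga
Psmb3: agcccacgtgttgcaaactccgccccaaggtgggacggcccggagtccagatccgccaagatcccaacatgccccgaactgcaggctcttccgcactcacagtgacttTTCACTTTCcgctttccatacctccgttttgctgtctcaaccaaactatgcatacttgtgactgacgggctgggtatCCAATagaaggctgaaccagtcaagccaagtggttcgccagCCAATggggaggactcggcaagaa
Psmb5: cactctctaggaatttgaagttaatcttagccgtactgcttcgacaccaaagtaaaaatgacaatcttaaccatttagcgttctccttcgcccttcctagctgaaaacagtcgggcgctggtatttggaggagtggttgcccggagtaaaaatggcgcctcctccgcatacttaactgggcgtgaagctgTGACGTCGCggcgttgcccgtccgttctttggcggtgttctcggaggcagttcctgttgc
Psmb10: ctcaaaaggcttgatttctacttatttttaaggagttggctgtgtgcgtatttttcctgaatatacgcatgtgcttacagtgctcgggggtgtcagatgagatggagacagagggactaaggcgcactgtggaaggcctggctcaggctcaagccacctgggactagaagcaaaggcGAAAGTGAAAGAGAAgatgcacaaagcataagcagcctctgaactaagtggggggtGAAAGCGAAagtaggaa

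The capitals show paired CCAAT boxes in opposite orientations in Psma3 and 3 such boxes in Psmd10. Psmb3, which fell, has 2 CCAAT boxes on its own strand and 1 interferon core on the other. Psmb5 has 1 antioxidant core, 60 bases before the start, and Psmb10 has 3 interferon cores, of which the pair at 73 and 67 bases before the start overlap. Promoter windows of 250 bases were found for 39 of the 43 genes, with none for Psma7, Psmd6, Psmd12 and Psmd14. The antioxidant core was present in 7 of the 39 (17.9%), beside 10.1% of all 33469 promoters in the table. CCAAT was present in 20 (51.3%), beside 34.0%, and the interferon core in 6 (15.4%), beside 8.12%. The 7 genes with an antioxidant core were Adrm1, Psma3, Psmb2, Psmb5, Psmb6, Psmd1 and Psmd9, of which Psma3 rose and the others did not pass the test. The core of Psma3 lies 12 bases before the start used for its window. It falls in the stretch not shown, inside the RefSeq gene record, and is counted among the 7. These are matches of letters, not measured sites. The promoters compared were not matched for expression or base content, so the shares are not read as an excess.

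Changes in proteasome genes after Bnip3 knockdown were small and mostly upward. Of the 43 genes, 7 rose, 2 fell and 34 did not pass the test. The genes that rose were the alpha-ring subunits Psma2 and Psma3, the ATPase Psmc4, the regulatory subunits Psmd2, Psmd13 and Psmd14 and the assembly chaperone Psmd10. Those that fell were the beta-ring subunit Psmb3 and the assembly chaperone Psmd5. Each of the 9 changed by less than 2-fold, from 1.30-fold (Psma2) to 1.86-fold (Psmd10). The split of calls by direction depends on ShCtrl array 4, and was 5 up and 4 down without that array.

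Read against the array as a whole, 20.9% of the proteasome genes passed, compared with 15.5% of all probesets, 7.61% upward and 7.87% downward. Most proteasome genes are well expressed here, however, with 40 of 43 above background on every array. Among these 40, 9 passed (22.5%), beside 29.1% of the 9711 probesets that lay above background on every array. The share called was thus no higher than among expressed probesets. The median difference was 0.22 over the 43 genes and 0.02 over all probesets, and 32 of 43 (74.4%) had a positive difference, beside 53.7% of all probesets. No proteasome gene passed with at least a 2-fold change, as 4.18% of probesets did (in limma, 17 of 43 members were higher and 2 lower at an unadjusted p under 0.05, as were 6188 of 23188 probesets in either direction).

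The groups did not overlap for 8 genes. All 5 ShBNIP3 arrays were higher than all 5 ShCtrl arrays for 7 of the 43, Psma2, Psma3, Psmb4, Psmc4, Psmd2, Psmd4 and Psmd13, beside 6.6% of all probesets. Psmb3 was lower on every ShBNIP3 array, beside 6.29% of all probesets. The matching shares among expressed probesets were not counted, so these counts are not read as an excess. Psmb4 and Psmd4 did not pass the adjusted test (limma adjusted p = 0.13 and 0.11), and Psmd14, Psmd10 and Psmd5 passed it although their groups overlapped.

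**Figure D1:**
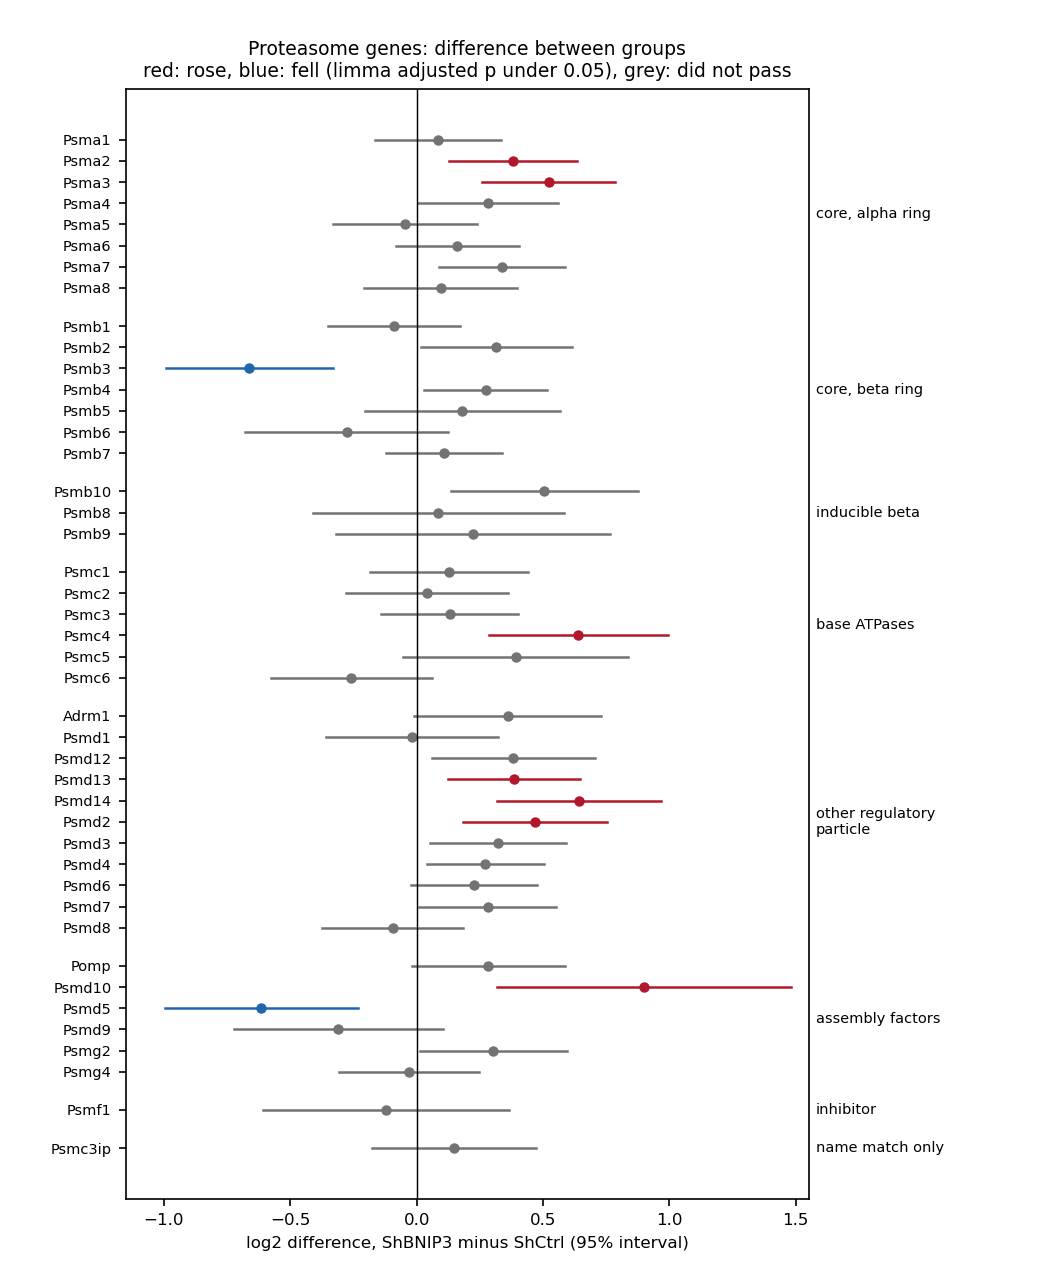
Log2 difference (ShBNIP3 minus ShCtrl) for each of the 43 proteasome genes with its 95% interval from limma, ordered by role; red marks the 7 genes that rose, blue the 2 that fell and grey those that did not pass. Most points lie to the right of 0, and Psmb3 and Psmd5 lie clearly to the left, at -0.66 and -0.61.

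In the alpha ring, 2 of 8 genes rose and 0 fell, with a median difference of 0.22. Psma3 was 13.85, 13.90, 13.93, 13.56 and 13.59 on ShCtrl arrays 1 to 5 and 14.50, 14.30, 14.29, 14.21 and 14.15 on ShBNIP3 arrays 6 to 10. The lowest ShBNIP3 array lay above the highest ShCtrl array, and the difference was 0.52 (limma adjusted p = 0.011, SE 0.12). The platform annotation gives this probeset a second accession, and RefSeq lists Psma3l as a synonym of Psma3, so near-identical copies may share it. Psma2 read 12.21, 12.28, 12.52, 12.18 and 12.21 in ShCtrl and 12.90, 12.53, 12.65, 12.57 and 12.66 in ShBNIP3. Its groups touched without overlapping, since ShCtrl array 3 lay just under ShBNIP3 array 7. The rise of 0.38 (limma adjusted p = 0.045, SE 0.12) held when array 3 was dropped (limma adjusted p = 0.033). It was lost when any of the other 9 was dropped (limma adjusted p 0.053 to 0.10). Without arrays 4 and 10 the limma adjusted p was 0.081.

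The remaining alpha genes did not pass. Psma7 differed by 0.34 (limma adjusted p = 0.067), Psma4 by 0.28, Psma6 by 0.16, Psma1 by 0.08 and Psma5 by -0.05. Psma7 passed without arrays 4 and 10 (difference 0.38, limma adjusted p = 0.031) and without array 10 alone (0.40, limma adjusted p = 0.025). Psma8, an alpha subunit of the testis, was at background on all 10 arrays.

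In the constitutive beta ring, 0 of 7 genes rose and 1 fell, with a median difference of 0.11. Psmb3, a structural subunit without catalytic activity, was 12.87, 12.70, 12.92, 12.20 and 12.42 in ShCtrl and 12.18, 12.02, 11.86, 11.85 and 11.90 in ShBNIP3. ShCtrl array 4 was the lowest control and lay just above the highest ShBNIP3 array, so the groups were separate but close at that point. Psmb3 fell by 0.66 on the log2 scale (limma adjusted p = 0.010, SE 0.15), a change of -36.8% on the linear scale, and it passed whichever single array was dropped (limma adjusted p 0.0019 to 0.030). Without arrays 4 and 10 it fell by 0.75. The other beta subunits without catalytic activity did not pass. Psmb2 differed by 0.31 (limma adjusted p = 0.16), Psmb4 by 0.27 (limma adjusted p = 0.13) and Psmb1 by -0.09.

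Of the 3 catalytic subunits of the constitutive core, none passed. Psmb5, with chymotrypsin-like activity, was 11.99, 12.28, 12.52, 11.53 and 12.42 in ShCtrl and 12.24, 12.17, 12.45, 12.50 and 12.30 in ShBNIP3 (difference 0.18, 95% interval -0.20 to 0.57, limma adjusted p = 0.59). Psmb6, with caspase-like activity, was 13.48, 13.53, 13.79, 12.81 and 13.82 in ShCtrl and 13.22, 13.52, 13.00, 13.22 and 13.09 in ShBNIP3 (difference -0.28, 95% interval -0.68 to 0.12, limma adjusted p = 0.39). Psmb7, with trypsin-like activity, was 14.46, 14.51, 14.65, 14.50 and 14.60 in ShCtrl and 14.73, 14.60, 14.75, 14.71 and 14.48 in ShBNIP3 (difference 0.11, 95% interval -0.12 to 0.34, limma adjusted p = 0.60). In all 3 the groups overlapped, and Psmb5 and Psmb6 were lowest of all on ShCtrl array 4. Without that array alone Psmb6 passed as lower (difference -0.45, limma adjusted p = 0.045), and without arrays 4 and 10 it differed by -0.42 (limma adjusted p = 0.065). Psmb5 differed by 0.03 without arrays 4 and 10 (limma adjusted p = 0.91).

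The inducible subunits were close to the background of the array. Psmb10 was 6.89, 6.97, 7.24, 6.74 and 7.05 in ShCtrl and 7.46, 7.37, 7.79, 7.84 and 6.96 in ShBNIP3, so that arrays 6 to 9 lay above every control and array 10 among them. Its difference of 0.51 (SE 0.17) just missed the threshold (limma adjusted p = 0.066) and passed without array 10 (0.64, limma adjusted p = 0.012) and without arrays 4 and 10 (0.58, limma adjusted p = 0.015). Psmb8 was 7.72, 7.49, 7.93, 7.07 and 8.00 in ShCtrl and 7.12, 7.87, 8.09, 8.17 and 7.40 in ShBNIP3, with a difference of 0.09 (limma adjusted p = 0.87, SE 0.23). Its groups covered nearly the same range. Psmb9 was 5.98, 6.39, 6.29, 5.45 and 6.23 in ShCtrl, at background on all 5 arrays, and 5.87, 6.44, 6.41, 7.05 and 5.68 in ShBNIP3, above background on array 9 alone, with a difference of 0.22 (limma adjusted p = 0.65, SE 0.25). All 3 were lowest among the controls on array 4, and highest of the knockdown arrays on array 9.

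**Figure D2:**
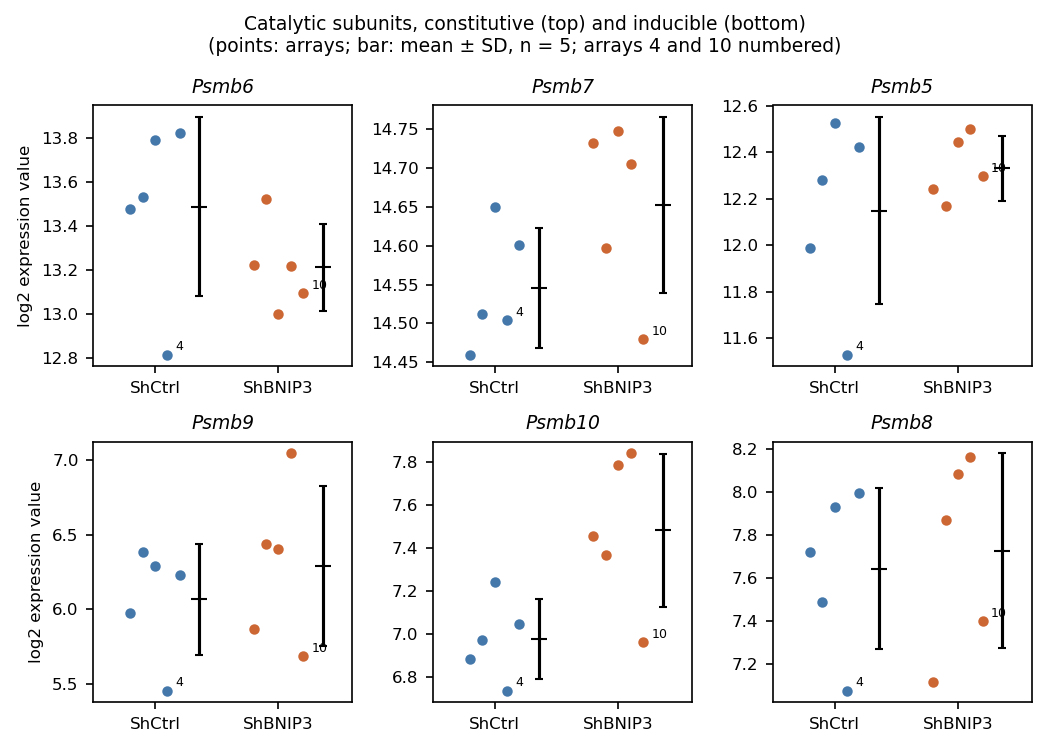
Log2 expression values of the constitutive catalytic subunits (top) and the inducible subunit that replaces each (bottom), 1 point per array, with mean ± SD (n = 5) beside each group. The groups overlap in all 6 panels, and in Psmb10 ShBNIP3 arrays 6 to 9 lie above all controls while array 10 does not.

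Within an array, each inducible subunit can be set against the constitutive subunit that it replaces, and the change in this log2 ratio between groups was compared for 3 pairs with an exact two-sided permutation test. This comparison was added after the values were seen. The ratio of Psmb10 to Psmb7 was higher in ShBNIP3 by 0.40 (exact p = 0.016, 0.048 adjusted over the 3 pairs). It was above the highest control ratio on 4 of 5 ShBNIP3 arrays, with array 10 the exception. Without arrays 4 and 10 the difference was 0.44, with an exact p of 0.029, the smallest that 4 against 4 arrays can give, and an adjusted p of 0.086. The ratio of Psmb8 to Psmb5 differed by -0.10 (exact p = 0.63, adjusted 0.63). That of Psmb9 to Psmb6 differed by 0.50 but is not read further, since Psmb9 was above background on 1 of 10 arrays. A changed ratio by itself shows unequal change of the pair and not which member moved. Psmb10 differed by 0.51 and Psmb7 by 0.11. The Psmb10 to Psmb7 ratio thus largely repeats the Psmb10 difference, which did not pass over all probesets (limma adjusted p = 0.066).

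In the ring of ATPases, 1 of 6 genes rose and 0 fell, with a median difference of 0.13. Psmc4 was 11.40, 11.27, 11.87, 10.84 and 11.48 in ShCtrl and 11.97, 11.93, 12.01, 12.13 and 12.03 in ShBNIP3. The knockdown arrays were closely grouped (SD 0.07, against 0.37 in ShCtrl) and all lay above the controls. The rise was 0.64 (limma adjusted p = 0.018, SE 0.16) and was 0.50 without arrays 4 and 10 (limma adjusted p = 0.026). Psmc5 differed by 0.39 (limma adjusted p = 0.25, SE 0.21), with a low value of 10.00 on ShCtrl array 4. Without arrays 4 and 10 Psmc5 differed by 0.24 (limma adjusted p = 0.26). Psmc1, Psmc3 and Psmc2 differed by 0.13, 0.13 and 0.04, and Psmc6 by -0.26 (limma adjusted p = 0.30).

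Among the other subunits of the regulatory particle, 3 of 11 rose and 0 fell, with a median difference of 0.32. Psmd14, the metalloprotease that cuts ubiquitin chains from substrates, was 12.72, 12.83, 12.99, 12.39 and 12.78 in ShCtrl and 13.62, 13.36, 13.57, 13.39 and 12.99 in ShBNIP3. Arrays 6 to 9 lay above all controls, and array 10 was level with the highest of them. It rose by 0.64 (1.56-fold, limma adjusted p = 0.011, SE 0.15), and passed whichever single array was dropped (0.0036 to 0.033). Psmd2, a scaffold of the base to which ubiquitin shuttle proteins bind, was 13.61, 13.66, 13.95, 13.32 and 13.71 in ShCtrl and 14.11, 14.00, 14.30, 14.19 and 14.00 in ShBNIP3. Its groups did not overlap and it rose by 0.47 (limma adjusted p = 0.029, SE 0.13), although dropping array 1, 2, 5, 6, 8 or 9 put the limma adjusted p over 0.05 (at most 0.074).

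Psmd13, a subunit of the lid, was 12.02, 12.02, 11.93, 11.91 and 11.83 in ShCtrl and 12.38, 12.55, 12.05, 12.21 and 12.44 in ShBNIP3. All knockdown arrays were higher, by a narrow margin on array 8. The rise of 0.39 (limma adjusted p = 0.047, SE 0.12) held when array 8 was dropped, but not when any other single array was (limma adjusted p at most 0.11), nor without arrays 4 and 10 (0.35, limma adjusted p = 0.093). Of the members that did not pass, the lid subunits Psmd12, Psmd3, Psmd7 and Psmd6 differed by 0.38, 0.32, 0.28 and 0.23. The ubiquitin receptors Adrm1 and Psmd4 differed by 0.36 and 0.27, and Psmd1 and Psmd8 by -0.02 and -0.09.

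**Figure D3:**
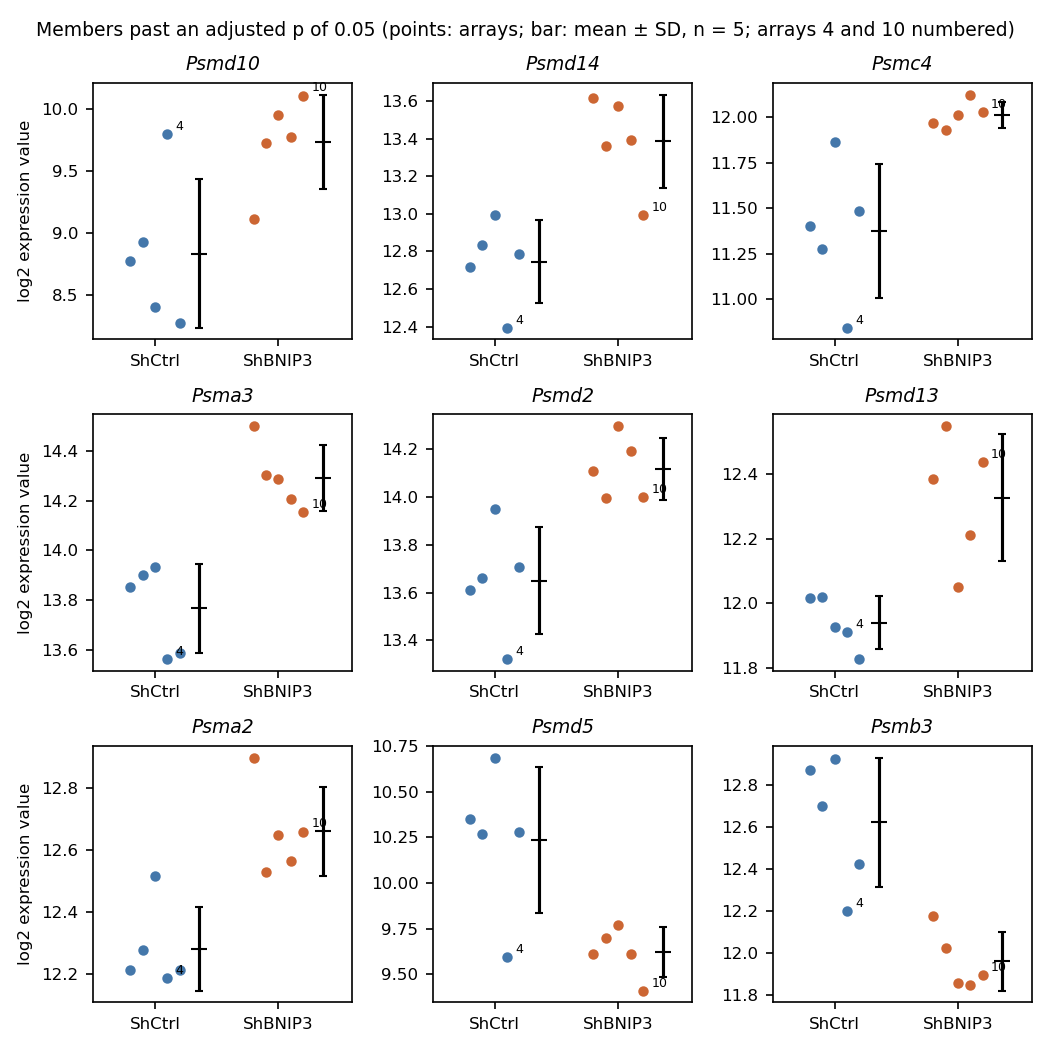
Log2 expression values of the 9 proteasome genes that rose or fell, 1 point per array, with mean ± SD (n = 5) beside each group and arrays 4 and 10 numbered. ShCtrl array 4 is the lowest control in 7 panels (all but Psmd10 and Psmd13) and the highest in Psmd10.

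Assembly factors went both ways, with 1 of 6 up and 1 down. Psmd10 (gankyrin), a chaperone of the ATPase ring, was 8.78, 8.93, 8.40, 9.80 and 8.28 in ShCtrl and 9.11, 9.72, 9.95, 9.78 and 10.11 in ShBNIP3. Control array 4 lay among the knockdown arrays and the other 4 controls below all of them. Psmd10 rose by 0.90 (1.86-fold, limma adjusted p = 0.039, SE 0.27), the largest difference of the 43 genes, and by 1.04 without arrays 4 and 10 (limma adjusted p = 0.0030). Psmd5, another chaperone of the ATPase ring that can also hold back assembly of the complete particle, was 10.35, 10.27, 10.69, 9.59 and 10.28 in ShCtrl and 9.61, 9.70, 9.77, 9.61 and 9.41 in ShBNIP3. Again control array 4 lay among the knockdown arrays. Psmd5 fell by 0.61 on the log2 scale (limma adjusted p = 0.032, SE 0.18), and by 0.72 without arrays 4 and 10 (limma adjusted p = 0.0020). When single arrays were dropped, Psmd10 passed without array 4 or 6 and Psmd5 without array 4 or 8. Each gene did not pass in its own other 8 fits (limma adjusted p at most 0.098 and 0.077). Without array 4 the adjusted p was 0.0021 for Psmd10 and 0.0014 for Psmd5.

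Psmd9, the further ATPase chaperone on the array, differed by -0.31 (limma adjusted p = 0.34) and passed as lower without arrays 4 and 10 (-0.46, limma adjusted p = 0.020). Pomp, the maturation factor of the core particle, was 13.26, 13.25, 13.38, 12.75 and 13.18 in ShCtrl and 13.68, 13.51, 13.41, 13.41 and 13.23 in ShBNIP3. It was lowest on ShCtrl array 4, and array 10 lay among the controls (difference 0.28, limma adjusted p = 0.22, SE 0.14). Psmg2, a chaperone of the alpha ring, differed by 0.30 (limma adjusted p = 0.17), and Psmg4, of the same family, was at background on all arrays. The inhibitor Psmf1 differed by -0.12 (limma adjusted p = 0.81, SE 0.22), and Psmc3ip, no part of the proteasome, by 0.15 (limma adjusted p = 0.61).

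Among the controls, 2 arrays were shifted across many proteasome genes. On ShCtrl array 4 they lay a median of 0.28 below the other 4 controls (median deviation -0.28), and 27 of 43 (62.8%) had their lowest control value there. Expressed probesets in general were also low on that array, with a median deviation of -0.12 and 43.8% at their lowest control value. On ShCtrl array 3 the median deviation was 0.19, with 19 of 43 genes at their highest control value, while that of the expressed probesets was 0.02. On ShBNIP3 array 10 the values were -0.11 and -0.03, and the share at the lowest value of the group was no higher for the proteasome genes (32.6%) than for expressed probesets (33.9%). The other ShBNIP3 arrays had medians between -0.02 and 0.09 for the proteasome genes. The 3 inducible genes deviated more, by a median of -0.71 on array 4, -0.65 on array 10, -0.53 on array 6 and 0.55 on array 9. Their medians were 0.38 on array 8 and 0.33 on array 3.

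**Figure D4:**
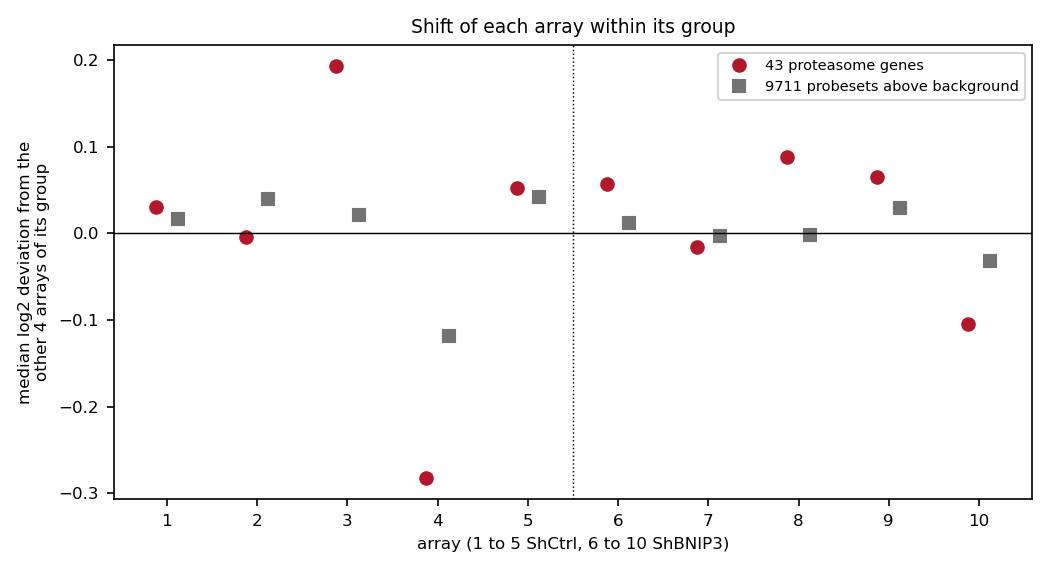
Median log2 deviation of each array from the other 4 arrays of its group, for the 43 proteasome genes (circles) and the 9711 probesets above background on all arrays (squares). Array 4 is low in both sets, at -0.28 and -0.12, and array 3 is high in the proteasome genes at 0.19 but not in the larger set at 0.02.

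Without arrays 4 and 10, 7 proteasome genes rose and 3 fell, beside 9.84% and 10.1% of all probesets, and the median difference of the 43 genes was 0.20. The shares among expressed probesets were not counted in that fit. Of the 9 genes called with all arrays, 7 passed there too, Psma3, Psmc4, Psmd2, Psmd10, Psmd14, Psmb3 and Psmd5. Psma2 and Psmd13 did not, and Psma7, Psmb10 and Psmd9 passed in addition. Dropping single arrays left 4 to 9 genes called, with 4 when array 1, 2, 5 or 9 was dropped and 5 when array 6 or 7 was. The count over all probesets moved from 3590 to between 2746 and 3960 in the same fits. Psma3, Psmb3, Psmc4 and Psmd14 passed in each of these 10 fits. Without array 4 alone, 5 proteasome genes rose and 4 fell (Psmb3, Psmb6, Psmd5 and Psmd9), with a median difference of 0.18. Over all probesets, 1844 rose and 2116 fell in that fit.

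**Figure D5:**
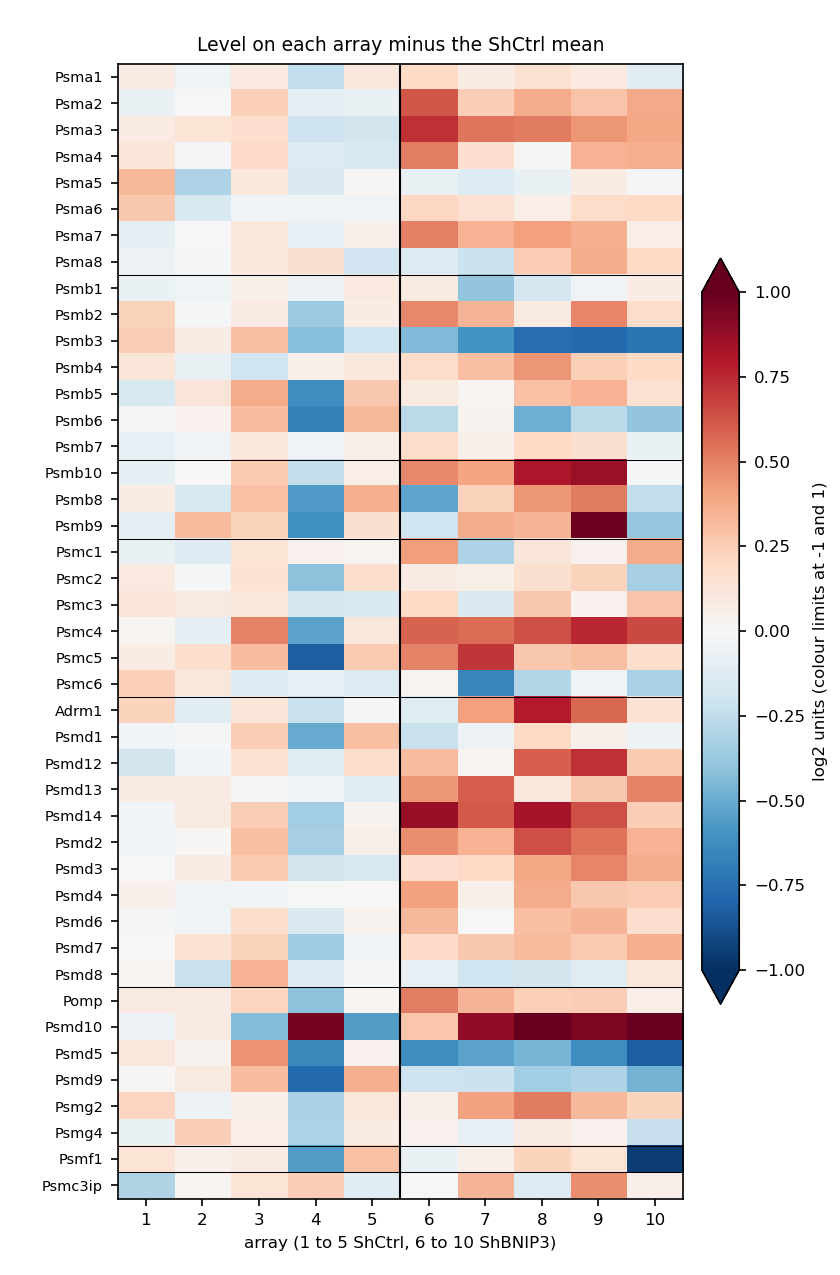
Log2 level of each of the 43 proteasome genes on each array minus its ShCtrl mean, with genes ordered by role and arrays 1 to 5 (ShCtrl) left of the vertical line; colours are limited at -1 and 1. Red prevails to the right of the line, the rows of Psmb3 and Psmd5 are blue there, and the column of array 4 is blue in most rows and red in Psmd10.

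Genes that act beside the proteasome were examined from lists chosen by function. Of 10 measured genes for proteins that associate with the particle, 1 rose and 2 fell. That is 30%, beside 15.5% of all probesets and 29.1% of expressed probesets, so it is not read as an excess. Txnl1, a thioredoxin-like protein bound to the regulatory particle, rose by 0.49 (limma adjusted p = 0.014, SE 0.12), and Fbxo7, a ubiquitin ligase subunit that binds Psmf1, fell by 0.81 on the log2 scale (limma adjusted p = 0.0014, SE 0.13). Psme3ip1, a protein that binds the alternative activator Psme3, fell by 0.54 (limma adjusted p = 0.0046, SE 0.11). The alternative activators themselves did not pass. Psme1 was 13.52 to 14.04 in ShCtrl and 14.11 to 14.27 in ShBNIP3, without overlap (difference 0.34, limma adjusted p = 0.072, SE 0.12). Psme2 differed by 0.60 (limma adjusted p = 0.13, SE 0.24), which became 0.63 (limma adjusted p = 0.0047) without arrays 4 and 10. In that fit 2 of the 10 associated genes passed as higher and 3 as lower, with Zfand2a (-0.64, limma adjusted p = 0.015) the added fall.

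Of 9 measured genes for ubiquitin activation, shuttling and extraction, 1 rose and 1 fell (22.2%, beside 29.1% of expressed probesets). Uba6, a ubiquitin-activating enzyme, rose by 0.67 (limma adjusted p = 0.0085, SE 0.15), and Nploc4, a cofactor of the segregase Vcp, fell by 1.38 (2.61-fold, limma adjusted p = 1.19e-05, SE 0.12). That fall is larger than any difference among the 43 proteasome genes. None of 6 measured regulators of proteasome genes passed (in limma 1, Nfe2l2, had an unadjusted p under 0.05). Nfe2l1 has no probeset under its name and is not analysed here. Nfe2l2, which activates proteasome and antioxidant genes, differed by -0.54 (limma adjusted p = 0.12, SE 0.22) and by -0.59 without arrays 4 and 10 (limma adjusted p = 0.0030). The proteasome genes had a median difference of 0.20 in that fit, and any link between them and Nfe2l2 was not tested.

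Class I antigen processing and its regulators were looked at as well. Of 9 measured genes of class I antigen processing and its control, 3 rose (33.3%) and 0 fell, beside 7.61% of all probesets that rose and 29.1% of expressed probesets that passed in either direction. Their median difference was 0.59, and the 9 include Psme1 and Psme2, counted above among the associated proteins. B2m, the small invariant chain of class I molecules, rose by 0.98 (limma adjusted p = 0.00084, SE 0.15), and the interferon regulatory factors Irf1 and Irf2 by 0.87 (limma adjusted p = 0.021, SE 0.23) and 0.59 (limma adjusted p = 0.025, SE 0.16). Irf1 was close to background in ShCtrl, at a mean of 7.01 and above background on 4 of 5 arrays. Irf8 was at background on all arrays. The peptide transporter genes Tap1 and Tap2 differed by -0.04 and 0.17, and Tapbp, which tethers class I molecules to the transporter, by 0.63 (limma adjusted p = 0.097), and none of these passed. Without arrays 4 and 10, 5 of these 9 genes passed as higher, Tapbp (0.62, limma adjusted p = 0.013) and Psme2 in addition to the 3 above. The macrophage and leukocyte marker sum given above, which is mostly Cd14, was also higher in ShBNIP3. Ptprc, Csf1r and Adgre1 were at background, and any part of these markers' cells in the class I values was not tested.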

How the data were processed

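RNA of 10 samples was measured on whole-transcript arrays (GeneChip WT Plus labelling). The deposited values are log2 expression values that the authors normalized with sst-rma, per the labels. Transcriptome Analysis Console is named in the submitters' processing notes, and its version and genome build are not given in the sources used here. The table was used on its own scale. Of 24834 probesets, 1646 control probesets were left out, and 15049 of the 23188 tested carry a gene symbol in the platform annotation.

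Groups were taken from sample titles. Differences were fitted with limma 3.58.1 (lmFit, eBayes) in R 4.3.3 over all probesets tested, with Benjamini-Hochberg adjustment, a threshold of 0.05 and 95% intervals. The code was tested on simulated data. No array number is shared between groups, and no label gives a batch. Their number limits the precision of the arrays. Alternatives were another variance model, quantile normalization, median centring, array weights, a filter on probesets above background on fewer than 5 arrays, a 2-fold threshold, an exact permutation test, leaving out each array, and leaving out arrays 4 and 10.

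The genes and lists were chosen with earlier results of these data known. By rule, array values are given for genes that passed, the catalytic subunits and Pomp, and genes of other lists are named where they passed, with Nfe2l2, Psme1, Psme2 and B2m in any case. Tap1, Tap2, Tapbp and other genes named beyond this were chosen after their values were seen. A summed level is log2 of the sum of a list's values on the linear scale.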

Additional observations from a re-analysis of the deposited data

Results flagged for a closer look

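In 5 of the 86 combinations of a proteasome gene and a group, 1 array stood apart from the other 4, by the ratio of its gap to the nearest array over the range of the group. Chance gives about 1 in 20 such cases. On ShCtrl array 4, Psmc5 was 10.00 with the next control at 10.90 (ratio 0.794), and Psmf1 was 11.07 with the next at 11.68 (ratio 0.719). Psmf1 was also lowest on ShBNIP3 array 10, at 10.68 with the next at 11.55 (ratio 0.747). Psma6 was highest on ShCtrl array 1, at 12.41 with the next at 12.10 (ratio 0.723), and Psma2 was highest on ShCtrl array 3, at 12.52 with the next at 12.28 (ratio 0.720). Their cause was not tested.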

How the results depend on the processing

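No paired analysis was possible, because the titles number the arrays 1 to 10 in sequence and no label pairs them. Whether cultures of both groups shared a source is not given. The count of 9 proteasome genes that passed was 9 to 12 under the other variance model, normalization, centring, weights and dim filter, and these fits kept all 9. It was 10 without arrays 4 and 10, and 4 to 9 with 1 array left out. Core particle calls (3) ranged from 2 to 3 with 1 array left out, regulatory particle calls (4) from 2 to 3, and calls among inducible and assembly genes (2) from 0 to 3, with 4 without arrays 4 and 10. With the 2-fold threshold the counts were 969 probesets and 0 proteasome genes, core, regulatory or assembly genes. The exact permutation test, adjusted over all probesets, called 0 probesets and 0 members (5931 and 21 at an unadjusted p under 0.05). Its smallest p is 0.0079, and its smallest adjusted p was 0.062. The Bnip3 difference ranged from -3.53 to -2.87. Of the single-gene values that changed side under the planned settings, none changed sign. With 5 arrays a group, the smallest difference among the proteasome genes that passed was 0.38.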
